A study of Mus musculus with 23 samples.

Results

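The genes described here are 9 genes of the brain's extracellular matrix: the lecticans Acan, Bcan, Ncan and Vcan, the link protein genes Hapln1 and Hapln4, the tenascin genes Tnr and Tnc, and the hyaluronan synthase gene Has3. The rule that defines them names components of perineuronal nets and of the looser matrix around them and uses no measured value. The members were, however, chosen with earlier results of these data known. All 9 were found among the 45706 gene IDs of the count table. The samples are polyadenylated RNA from the mouse hippocampus, in 23 libraries. The study's design names CA1 and CA3 excitatory neurons and somatostatin-positive (SST) interneurons, and asks how expression differs between wild-type mice and conditional mutants of Slm2, also called Khdrbs3, which encodes an RNA-binding protein that regulates splicing. The libraries formed 6 groups. CamK, labelled as excitatory pyramidal cells, had 4 SLM2 WT and 3 SLM2 cKO libraries. Grik, with the same cell type label, had 4 of each genotype, and SST, labelled as somatostatin interneurons, had 4 of each. Age, strain, the Cre lines, the deleted exons and the way the cells or their RNA were isolated are not given in the sources used here. The labels do not say that libraries of a group came from separate animals, so p-values measure the spread between these libraries.

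Perineuronal nets are dense coats of matrix around the soma and proximal dendrites of some neurons, best known around fast-spiking parvalbumin interneurons and, in the hippocampus, also around CA2 pyramidal cells. Membrane-bound hyaluronan synthases extrude hyaluronan chains; lecticans, which are chondroitin sulfate proteoglycans, bind those chains through their N-terminal ends, and link proteins lock that contact. The C-terminal ends of lecticans bind tenascins, and the trimeric tenascin-R crosslinks neighbouring lecticans. Neurons and glia both supply these parts, so a member's mRNA in a neuronal sample can come from more than one cell type.

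Gene reads per library were 87612006 to 112993538 (median 91378465), and 18823 genes, all 9 members among them, passed the filter on low counts. The labelled populations were checked against marker genes. The summed level of 3 CA1 markers was 625 to 905 CPM (a gene's reads per 1000000 gene reads of the library, scaled by TMM factors) in WT CamK and 44.9 to 62.2 in WT Grik, and that of 3 CA3 markers was 156 to 184 and 814 to 882. The 3 inhibitory markers summed to 41.2 to 135 CPM in WT CamK, 60.3 to 81.6 in WT Grik and 4720 to 5327 in WT SST. The 4 excitatory markers summed to 5393 to 5903 CPM in WT CamK, 6804 to 7840 in WT Grik and 763 to 891 in WT SST. The 4 dentate granule markers summed to 104 to 272, 146 to 158 and 28.2 to 40.1 CPM in the same order. The part of other neuron types in the member values was not tested. Parvalbumin mRNA was also present in WT SST, at 140 ± 25.3 CPM (SD, n = 4), against 1.05 ± 0.257 in WT CamK and 1.05 ± 0.355 in WT Grik. Sst itself ranged from 159 to 1720 CPM in WT SST, and the library at 159 was SST WT replicate 2, which stood apart from the others in this gene. Mean Khdrbs3 was lower in the cKO libraries of CamK (278 against 373 CPM) and SST (93.8 against 130) but higher in those of Grik (414 against 336). As the deleted exons are not given, counts over the whole gene cannot settle the genotype. The Grik libraries thus lack a drop that would back their label, and all such samples are called libraries labelled cKO. In bulk RNA of this kind, fewer cells of a type and less RNA per cell cannot be told apart.

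Among the 9 genes, the one that differed most between the neuron types was Hapln1. It was found at 27.7, 36.1, 34.9 and 35.7 CPM in the 4 SST WT libraries, and at under 1 CPM in each WT library of CamK and Grik. Acan and Tnc had the same order of groups at lower levels, with SST above both pyramidal populations. Hapln4 went another way, being highest in Grik, and Ncan was higher in both pyramidal populations than in SST. Bcan did not pass the test between any 2 WT populations, and Tnr differed little. No member passed the threshold for a difference between genotypes in any population in edgeR, while DESeq2 called Hapln1 in CamK.

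**Figure D1:**
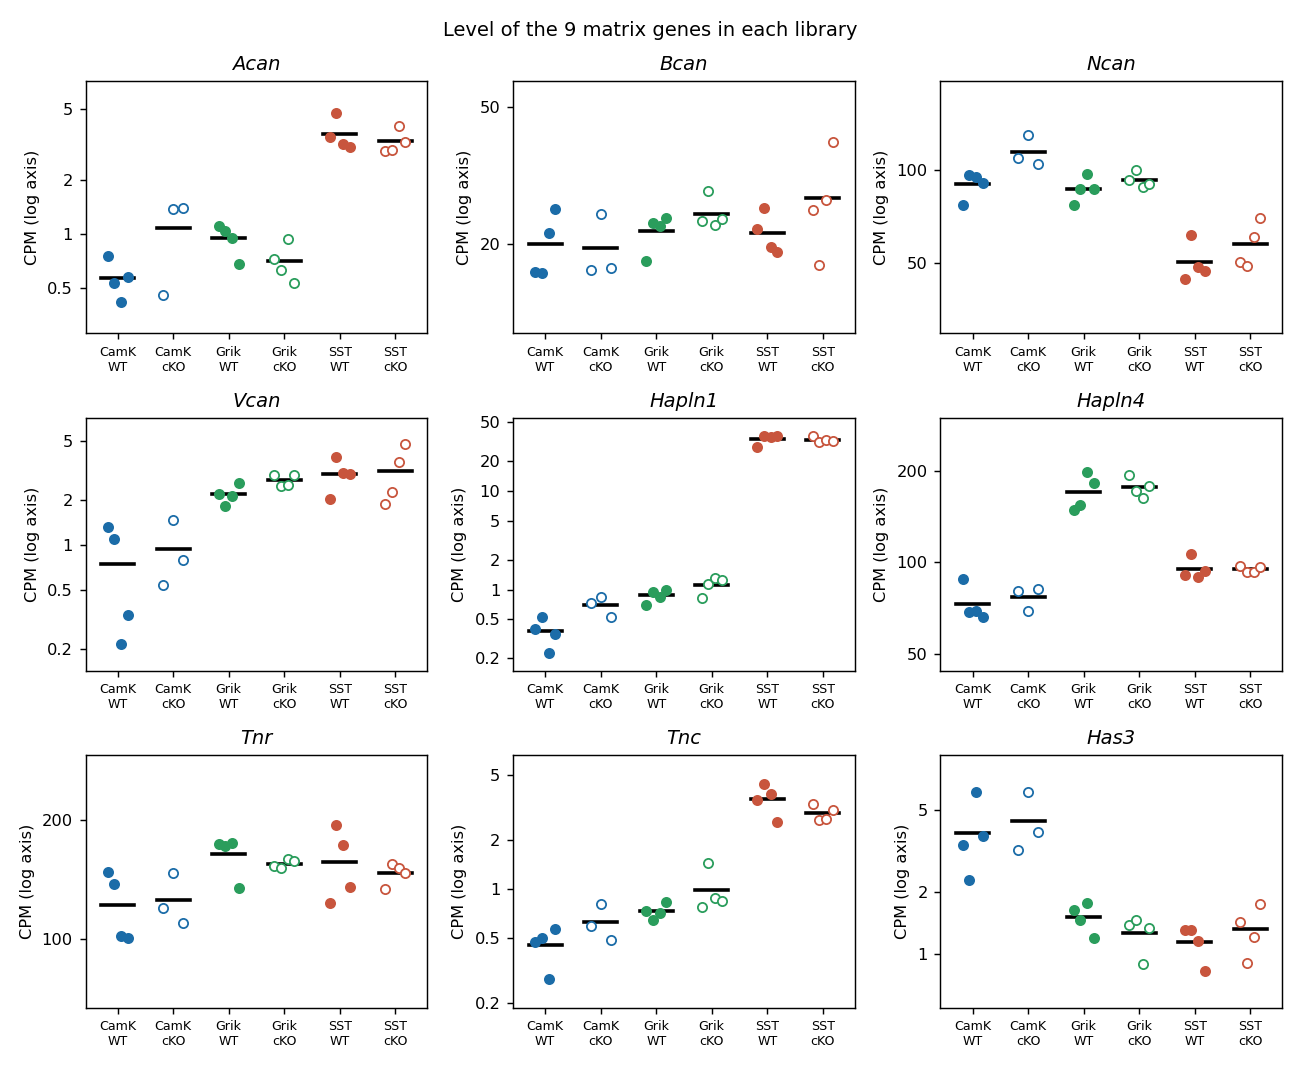
Level of each of the 9 genes in CPM on a log axis, 1 point per library, filled for WT and open for libraries labelled cKO, with a line at each group mean (3 libraries in CamK cKO and 4 in each other group). Hapln1 lies between 27.7 and 36.4 CPM in SST and between 0.226 and 1.30 CPM in CamK and Grik.

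Levels of different genes were compared per kilobase of annotated exon (RPKM). Hapln4 had the highest per-length level of the 9 in each WT group, at 18.6 ± 2.61 RPKM in CamK, 43.5 ± 6.02 in Grik and 24.2 ± 1.97 in SST (SD, n = 4 each). In Grik WT this placed it at percentile 93.9 of the genes tested. Ncan, Tnr and Bcan followed in the pyramidal WT groups, with Ncan and Tnr changing places between CamK (12.5 and 9.47 RPKM) and Grik (12.1 and 12.7). The Ncan and Tnr levels in WT Grik differed by less than their SDs of 1.15 and 1.51. In SST WT the order was Hapln4, Tnr (12.2 RPKM), Ncan (6.99), Hapln1 (5.70) and Bcan (5.30), the last 2 of which differed by less than the SD of either, 0.673 and 0.726. Acan, Vcan, Tnc and Has3 were at 0.605 RPKM or less on average in all WT groups, so the mRNA of aggrecan, the lectican regarded as the defining net component, was a minor one here.

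The lecticans share the hyaluronan-binding end and differ in the length of the chondroitin sulfate-bearing middle. Neurocan and brevican, encoded by Ncan and Bcan, together made up most of the lectican mRNA per length in every group. Ncan took 71.4 ± 3.86% of it in WT CamK, 68.2 ± 1.78% in WT Grik and 53.8 ± 2.34% in WT SST (SD, n = 4 each). Bcan took 27.9 ± 4.02%, 30.2 ± 1.89% and 40.9 ± 2.51% in the same order. The Ncan share in WT SST (50.4 to 55.4%) did not overlap that in WT CamK (66.6 to 76.1%) or Grik WT (66.3 to 69.9%). Acan took 0.449 ± 0.162% in WT CamK, 0.724 ± 0.197% in WT Grik and 3.72 ± 0.292% in WT SST, and Vcan took at most 1.74% in any WT library. The summed lectican level was 17.5 ± 1.81 RPKM in WT CamK, 17.8 ± 1.68 in WT Grik and 13.0 ± 1.84 in WT SST. These shares depend on the annotated lengths, and with the longest transcript in place of all exons Bcan took 33.3, 35.8 and 47.1% in the 3 WT groups and Ncan 66.0, 62.6 and 47.9%. In SST cKO their order then turned, with Bcan at 49.2% and Ncan at 46.7%.

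**Figure D2:**
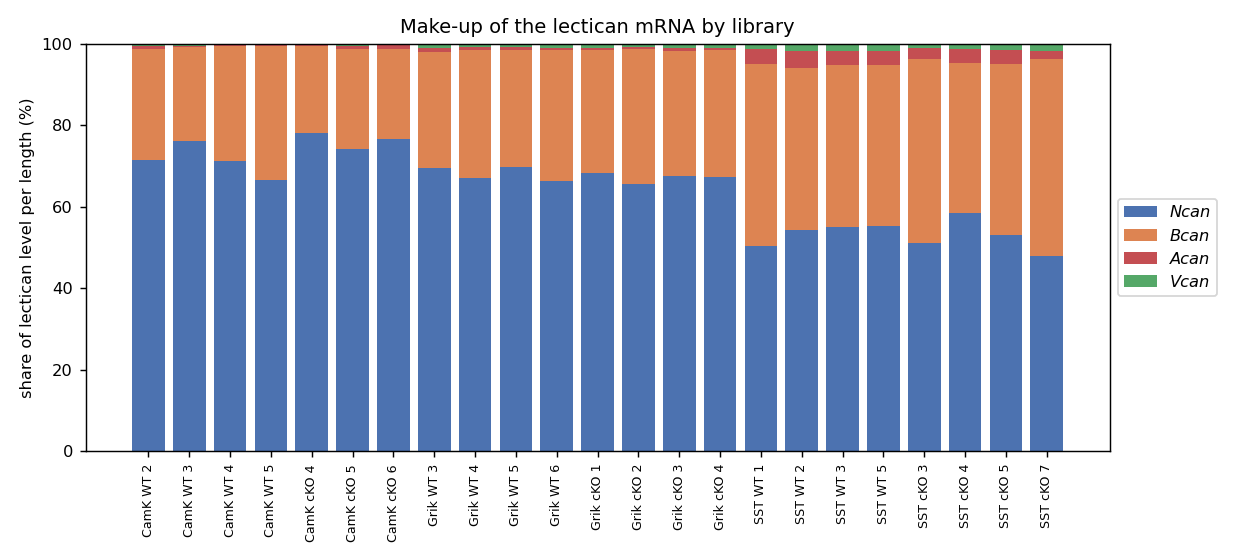
Share of each lectican in the summed per-length level of Acan, Bcan, Ncan and Vcan, in percent, 1 bar per library. Ncan takes 53.8% on average in WT SST and 71.4% in WT CamK, and Bcan takes the larger part of the rest.

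Acan encodes aggrecan, the lectican most often used to mark perineuronal nets. Its levels were 0.759, 0.532, 0.418 and 0.580 CPM in CamK WT replicates 2 to 5, 1.11, 1.04, 0.950 and 0.680 CPM in Grik WT replicates 3 to 6, and 3.51, 4.78, 3.18 and 3.06 CPM in SST WT replicates 1, 2, 3 and 5. The lowest SST WT library was above every CamK and Grik WT library, while CamK and Grik overlapped. Acan was 3.83-fold higher in SST than in Grik (95% interval 2.58 to 5.70, adjusted p = 1.09e-06, edgeR) and 6.33-fold higher than in CamK (4.19 to 9.56, adjusted p = 1.16e-08, edgeR). Between CamK and Grik the log2 fold change was -0.72 ± 0.28 (SE, adjusted p = 0.0410, edgeR), a call that was lost in 6 of the 8 fits without 1 library (adjusted p up to 0.122, edgeR), when only these populations were fitted (0.0636) and in limma-voom (0.0838). With a glial marker score (the mean log2 level of 20 glial markers in a library) as a covariate it was -0.031 (adjusted p = 0.982, edgeR). The read counts behind these values were as low as 37 in WT CamK and reached 450 in WT SST. In SST WT replicate 2, the library with the least Sst and the highest Pvalb (172 CPM), Acan was the highest of the SST WT libraries. So were Bcan, Ncan, Vcan, Hapln1, Hapln4, Tnr and Tnc, the glial marker score (4.04) and the sum of 8 astrocyte markers (290 CPM). Without this library the log2 difference of Acan from CamK was -2.50 instead of -2.66.

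Ncan encodes neurocan, an abundant lectican of the developing and adult brain. Its levels in the 4 WT libraries were 77.0, 96.1, 95.3 and 90.9 CPM in CamK, 77.1, 87.1, 97.4 and 87.0 in Grik and 44.2, 61.6, 48.3 and 47.1 in SST. All pyramidal WT libraries were above all SST WT libraries, and CamK and Grik overlapped. Ncan was 1.79-fold higher in CamK than in SST (95% interval 1.51 to 2.11, adjusted p = 6.02e-07, edgeR) and 1.73-fold higher in Grik than in SST (1.47 to 2.04, adjusted p = 1.41e-06, edgeR). The CamK against Grik difference was 0.044 ± 0.11 on the log2 scale (SE, 95% interval -0.19 to 0.28) and did not pass the test, but with the glial marker score as a covariate it was 0.64 (adjusted p = 0.0411, edgeR).

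Bcan encodes brevican, a short lectican made by neurons and glia. Its WT means were 20.0 ± 4.28 CPM in CamK, 21.8 ± 2.72 in Grik and 21.5 ± 2.95 in SST (SD, n = 4 each), and all 3 ranges overlapped. None of the 3 WT comparisons passed the test, with log2 fold changes of -0.13 (95% interval -0.53 to 0.28) for CamK against Grik, -0.11 (-0.52 to 0.29) for CamK against SST and 0.019 (-0.39 to 0.42) for Grik against SST. With the glial score as a covariate the first and second reversed to 0.91 and 0.71 (adjusted p = 0.0786 and 0.0551, edgeR), and neither was called.

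Vcan encodes versican, which in the adult brain is known from oligodendrocyte precursors and astrocytes as well as neurons. It was low and uneven in WT CamK, at 1.31, 1.10, 0.215 and 0.339 CPM in replicates 2 to 5, and steadier in WT Grik (1.83 to 2.59) and SST WT (2.03 to 3.91). The highest CamK WT library was below the lowest of either other WT group. Vcan was 2.95-fold lower in CamK than in Grik (95% interval 1.61 to 5.39, adjusted p = 0.00397, edgeR) and 4.02-fold lower than in SST (2.20 to 7.36, adjusted p = 2.29e-04, edgeR). Glial markers also differed between these groups. The precursor and oligodendrocyte sums were highest in WT Grik, while Vcan was not higher in Grik than in SST. The 6 precursor markers (Cspg4 and Pdgfra among them) summed to 4.55 to 9.33 CPM in WT CamK, 74.7 to 122 in WT Grik and 33.1 to 36.9 in WT SST, with each of the 6 above 0 in every group mean. Oligodendrocyte markers summed to 156 to 236, 833 to 1175 and 368 to 757 CPM in the same order, and astrocyte markers to 79.2 to 102, 98.0 to 128 and 206 to 290. With the score of these 20 glial markers as a covariate, the Vcan difference between CamK and Grik was 0.73 (adjusted p = 0.461, edgeR) and that between CamK and SST was -0.21 (adjusted p = 0.787, edgeR). That between Grik and SST was -0.94 (adjusted p = 0.0110, edgeR), against -0.45 without the score. The glial part in the Vcan level was not tested. The score ran from 1.34 to 2.81 in CamK, from 4.03 to 4.75 in Grik and from 3.30 to 4.83 in SST. Glial marker level and population therefore cannot be told apart between CamK and either other population.

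**Figure D3:**
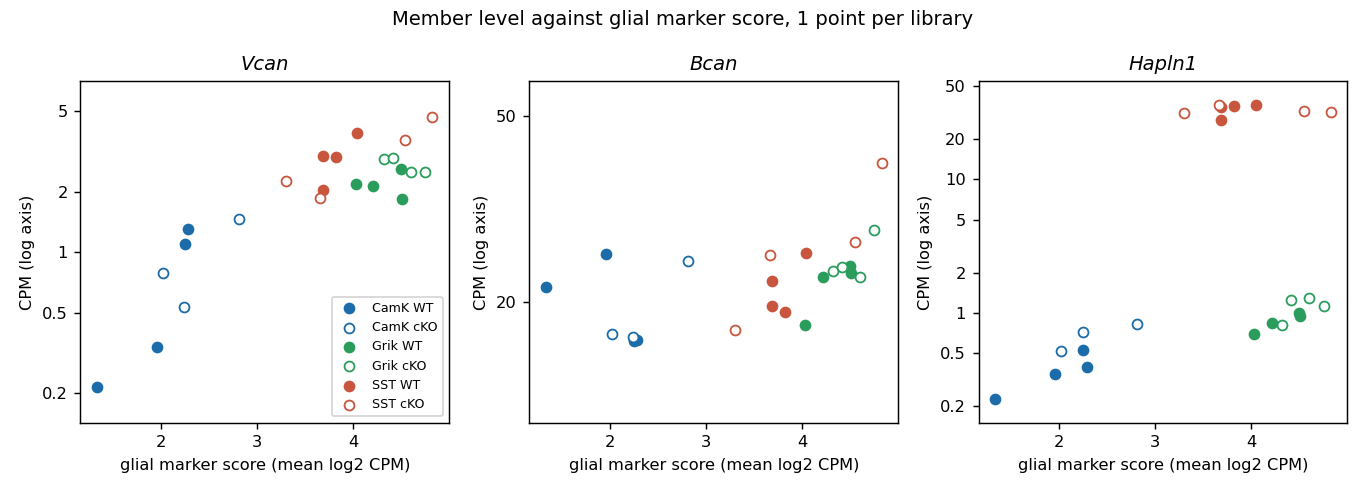
Level of Vcan, Bcan and Hapln1 in CPM (log axis) against the mean log2 CPM of 20 glial markers, 1 point per library, filled for WT and open for libraries labelled cKO. Vcan is lowest (0.215 CPM) in the library with the lowest score (1.34), while Hapln1 in Grik stays at or below 1.30 CPM at scores of 4.03 to 4.75, which overlap those of SST.

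Link proteins stabilise the bond between a lectican and hyaluronan, and Hapln1 and Hapln4 are the neuronal ones among the 4 in the genome. For Hapln1, CamK WT replicates 2 to 5 were at 0.396, 0.532, 0.226 and 0.350 CPM and Grik WT replicates 3 to 6 at 0.699, 0.950, 0.847 and 0.996. The 3 populations did not overlap in WT, whereas among all libraries CamK reached 0.833 CPM and Grik began at 0.699. Hapln1 was 89.0-fold higher in SST than in CamK (95% interval 66.8 to 118, adjusted p = 2.50e-18, edgeR) and 38.5-fold higher than in Grik (29.6 to 50.0, adjusted p = 8.59e-18, edgeR). It was also 2.31-fold lower in CamK than in Grik (1.73 to 3.10, adjusted p = 2.62e-05, edgeR). The CamK and Grik levels rested on 20 to 85 reads per WT library, against 3232 to 3543 in SST. Expressed as a share of the SST WT mean, Hapln1 stood at 1.12% in WT CamK and 2.60% in WT Grik. For 8 interneuron transcripts measured the same way, the share ran from 0.133% (Npy) to 3.10% (Elfn1) in WT CamK, and from 0.302% (Lhx6) to 1.89% (Gad1) in WT Grik. The Hapln1 share lay within that range in WT CamK and above all 8 in WT Grik. The shares of Gad1, Gad2, Slc32a1 and Elfn1 were lower in WT Grik than in WT CamK, while those of Sst (0.560 and 0.815% in CamK and Grik), Npy (0.133 and 0.338%), Lhx6 (0.294 and 0.302%) and Pvalb (0.748 and 0.751%) were higher or nearly equal. Their part in the pyramidal Hapln1 level was not tested. With the glial score as a covariate the difference between SST and the pyramidal groups kept its direction and size, at -6.07 for CamK and -5.38 for Grik, while the CamK against Grik call was lost (log2 fold change -0.69, adjusted p = 0.197, edgeR).

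Hapln4, which encodes the brevican-binding link protein Bral2, had the opposite order between Grik and SST. Its WT levels were 88.2, 68.6, 69.0 and 66.0 CPM in CamK, 148, 154, 198 and 182 in Grik and 90.9, 106, 89.6 and 93.4 in SST. Every Grik library was above every library of the other populations. Hapln4 was 2.34-fold higher in Grik than in CamK (95% interval 2.04 to 2.69, adjusted p = 1.83e-10, edgeR) and 1.80-fold higher than in SST (1.56 to 2.06, adjusted p = 3.13e-08, edgeR). The difference of CamK from SST was smaller, at -0.38 ± 0.095 on the log2 scale (SE, adjusted p = 0.00117, edgeR), and was not called with the glial score as a covariate (-0.34, adjusted p = 0.136, edgeR). Of the per-length mRNA of both link proteins, Hapln1 made up 0.345 ± 0.125% in WT CamK, 0.341 ± 0.0554% in WT Grik and 19.0 ± 1.75% in WT SST (SD, n = 4 each). The CamK and Grik ranges of this share, 0.217 to 0.512% and 0.283 to 0.408%, overlapped.

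Tenascins are large oligomeric glycoproteins that bind lecticans. Tnr, the tenascin of mature nets, was among the most abundant of the 9 genes, with WT means of 122 ± 24.4 CPM in CamK, 164 ± 19.4 in Grik and 157 ± 32.9 in SST (SD, n = 4 each). CamK WT libraries were at 148, 137, 102 and 100 CPM and overlapped both other groups. Tnr was lower in CamK than in Grik (log2 fold change -0.43 ± 0.13, SE, adjusted p = 0.0132, edgeR) and than in SST (-0.36 ± 0.13, adjusted p = 0.0243, edgeR). Both calls were lost when CamK WT replicate 4 or 5 was left out (adjusted p = 0.0545 and 0.0575 against Grik, 0.103 and 0.0948 against SST, edgeR). The call against SST was also lost without SST WT replicate 2 (log2 fold change -0.24, adjusted p = 0.139, edgeR) or replicate 3 (-0.31, adjusted p = 0.0736, edgeR). With the glial score as a covariate the values were -0.0064 against Grik and -0.027 against SST, neither of which was called. Fitted on CamK and SST alone, the latter was -0.36 (adjusted p = 0.0510, edgeR).

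Tnc, a tenascin best known from developing brain and reactive glia, was low everywhere. It stood at 0.473, 0.498, 0.282 and 0.569 CPM in WT CamK, 0.733, 0.649, 0.710 and 0.832 in WT Grik and 3.51, 4.37, 3.79 and 2.55 in WT SST. In WT, all SST libraries were above all pyramidal ones and all CamK libraries below all Grik ones; among all libraries CamK reached 0.811 CPM and Grik began at 0.649. Tnc was 7.77-fold higher in SST than in CamK (95% interval 5.48 to 11.0, adjusted p = 9.10e-11, edgeR) and 4.86-fold higher than in Grik (3.47 to 6.80, adjusted p = 4.85e-09, edgeR). Endothelial markers also differed, with 4 of them summing to 7.22 to 27.3 CPM in WT SST, 0.915 to 1.82 in WT CamK and 3.08 to 4.19 in WT Grik, and their part in the member values was not tested. The Tnc difference of CamK from Grik, 1.60-fold lower (1.13 to 2.27, adjusted p = 0.0249, edgeR), was lost without CamK WT replicate 4 (adjusted p = 0.0975) or Grik WT replicate 6 (adjusted p = 0.0630) and in limma-voom (adjusted p = 0.0983), and reversed to 0.090 with the glial score as a covariate.

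Has3 encodes the hyaluronan synthase that makes shorter chains, and it was higher in CamK than in both other populations. Its levels were 3.37, 2.29, 6.05 and 3.73 CPM in WT CamK, 1.63, 1.46, 1.77 and 1.20 in WT Grik and 1.31, 1.31, 1.16 and 0.826 in WT SST. CamK did not overlap either other population, and Grik overlapped SST. Has3 was 2.55-fold higher in CamK than in Grik (95% interval 1.73 to 3.75, adjusted p = 1.88e-04, edgeR) and 3.35-fold higher than in SST (2.27 to 4.95, adjusted p = 3.91e-06, edgeR). With the glial score as a covariate the difference from Grik was 1.38 on the log2 scale and did not pass (adjusted p = 0.119, edgeR). Its exons overlap those of Chtf8 on the other strand, a more abundant gene at 139 CPM in WT CamK, 122 in WT Grik and 78.7 in WT SST. No source used here gives the strand setting of the counting, which leaves the Has3 values uncertain. The other synthases, Has1 and Has2, were at 0.627 and 0.0499 CPM in WT CamK.

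Over all members, 7 of 9 passed the threshold of adjusted p under 0.05 between CamK and Grik WT, where 42.0% of all genes tested did. Of these, 6 were lower in CamK and 1, Has3, was higher, beside 21.1 and 20.9% of all genes in those directions. Between CamK and SST WT, 8 of 9 passed, beside 60.1% of all genes. With the glial score as a covariate 5 passed there, beside 41.2% of all genes. Between Grik and SST WT, 5 of 9 passed, beside 57.3% of all genes, which is near the background. The median log2 fold change of the members was -0.68, -0.38 and 0.019 in these 3 comparisons, beside 0.0078, -0.021 and -0.026 over all genes. With CamK WT replicate 4 left out, 4 of the 9 passed between CamK and Grik, beside 38.0% of all genes in that fit, and with the glial score as a covariate 2 did, Ncan and Hapln4, beside 16.3%.

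The same contrasts were made among libraries labelled cKO, with no WT library in the groups compared. They came from the same fit of all 23 libraries and shared its estimate of the spread, so they are not independent of the WT contrasts. There 4 of 9 members passed between CamK and Grik (35.7% of all genes), 7 between CamK and SST (56.4%) and 5 between Grik and SST (57.9%). Between CamK and Grik, DESeq2 called 6 members (37.6% of all genes) and limma-voom 8 (44.4%). Bcan and Tnr were among those that limma-voom added (adjusted p = 0.0250 and 0.0137, limma-voom). Of the 7 between CamK and SST, Hapln4 no longer passed without CamK cKO replicate 5 (adjusted p = 0.103, edgeR), and 4 members passed with the glial score as a covariate, beside 38.5% of all genes in that fit. Of the 7 members that differed between CamK and Grik in WT, 4 passed in the same direction (Vcan, Hapln1, Hapln4 and Has3). With CamK cKO replicate 4 left out Vcan no longer passed (adjusted p = 0.0621, edgeR), and with the glial score as a covariate it turned to 0.62 (adjusted p = 0.560, edgeR). Hapln1 did not pass when CamK cKO replicate 6 was left out (adjusted p = 0.0648, edgeR) or with the glial score as a covariate (-0.22, adjusted p = 0.735, edgeR). Acan had the other sign, at 0.61 ± 0.30 (SE, adjusted p = 0.112, edgeR), and without CamK cKO replicate 4 it was called in that direction (0.98, adjusted p = 0.00504, edgeR). Ncan and Tnc just missed the threshold between CamK and Grik (0.30, adjusted p = 0.0527, and -0.64, adjusted p = 0.0501, edgeR) and were called by DESeq2 and limma-voom. So did Bcan between CamK and SST (-0.49, adjusted p = 0.0508, edgeR), which was called by the same tools. All 5 members called between Grik and SST in WT were called in the same direction. Hapln1 was 47.6-fold (95% interval 35.1 to 64.5) and 29.3-fold (22.7 to 37.9) higher in SST than in CamK and Grik among libraries labelled cKO, with adjusted p of 1.44e-16 and 2.32e-17 in edgeR. Hapln4 was 2.29-fold higher in Grik than in CamK (1.96 to 2.67, adjusted p = 1.83e-09, edgeR).

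In the annotation (GENCODE M21, GRCm38), each of the 4 lecticans has a link protein gene as a neighbour with no other coding gene between. Ncan (chromosome 8, 70093085 to 70120873, minus strand) and Hapln4 (70083457 to 70090862, plus strand) lie 2.2 kb apart. Vcan (chromosome 13, 89655312 to 89742509, minus strand) and Hapln1 (89539796 to 89611652, plus strand) lie 43.7 kb apart. Bcan (chromosome 3, 87987531 to 88000230, minus strand) lies 21.5 kb from Hapln2, and Acan (chromosome 7, 79053483 to 79115099, plus strand) 2 bases from the end of Hapln3. Ncan and Hapln4 were both higher in Grik than in SST (log2 fold changes 0.79 and 0.85), but CamK differed from Grik in Hapln4 (-1.23) and not in Ncan (0.044). Hapln1 differed between Grik and SST by -5.27 and its neighbour Vcan by -0.45, which did not pass the test (-0.94 with the glial score, adjusted p = 0.0110, edgeR). Tnr (chromosome 1, 159523769 to 159931729, plus strand), Tnc (chromosome 4, 63959785 to 64047015, minus strand) and Has3 (chromosome 8, 106870242 to 106884566, plus strand) are the other members. In the annotation, exons of Tnr overlap those of the antisense transcript Gm38039 (at most 6 reads in a library), and exons of Tnc overlap those of 8030451A03Rik (at most 21).

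For Acan, Tnc and Vcan, low-level members that were all higher in SST than in CamK, the 250 bases before the RefSeq start (GRCm38.p6) are shown on the gene's own strand. RefSeq starts were available for 7 of the 9 members. The Acan window lies upstream of the annotated gene start (79053483), and its RefSeq start was not matched to an annotated transcript. The letters searched on both strands were CCAAT for the box of that name, GGGCGG for the GC box, TATAAA for the TATA box, CACGTG for the E-box, TAATTA for homeodomain proteins and TGACGTCA for the cyclic AMP response element, and matches are in capitals.
Acan, chr7:79052976-79053225, plus strand: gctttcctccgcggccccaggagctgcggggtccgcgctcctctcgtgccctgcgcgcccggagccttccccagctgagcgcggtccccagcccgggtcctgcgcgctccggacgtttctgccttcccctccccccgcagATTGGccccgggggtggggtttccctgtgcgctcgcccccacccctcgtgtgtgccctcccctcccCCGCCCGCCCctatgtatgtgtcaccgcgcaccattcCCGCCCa
Tnc, chr4:64047016-64047265, minus strand: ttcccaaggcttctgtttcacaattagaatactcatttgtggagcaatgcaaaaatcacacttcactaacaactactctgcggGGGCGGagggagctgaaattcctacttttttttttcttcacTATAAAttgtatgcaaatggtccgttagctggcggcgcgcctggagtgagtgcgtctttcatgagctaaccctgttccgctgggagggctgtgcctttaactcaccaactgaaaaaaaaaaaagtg
Vcan, chr13:89742513-89742762, minus strand: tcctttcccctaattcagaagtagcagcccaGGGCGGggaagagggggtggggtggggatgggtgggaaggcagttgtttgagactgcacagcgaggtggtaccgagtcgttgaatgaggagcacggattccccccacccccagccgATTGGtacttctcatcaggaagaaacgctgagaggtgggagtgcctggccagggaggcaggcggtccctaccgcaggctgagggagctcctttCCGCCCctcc
The Acan window was 74.4% G and C and held 3 GGGCGG matches, 2 of them overlapping, and 1 CCAAT. That of Tnc was 44.8% G and C and held 1 GGGCGG and 1 TATAAA, and that of Vcan was 62.4% and held 2 GGGCGG and 1 CCAAT. Across 32851 RefSeq promoters of this length, 32.7% held GGGCGG, 33.8% CCAAT and 12.4% TATAAA, and the median content was 52.4% G and C. None of the other 3 motifs occurred in these windows. A second RefSeq start of Tnc gives an overlapping window (64046937 to 64047186) of 51.2% G and C with the same motif counts.

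Libraries labelled cKO were then compared with WT in each population. None of the 9 members passed the threshold in CamK, Grik or SST by edgeR, where 0.0106% of all genes passed in each population. Before adjustment, 3 members had p under 0.05 in CamK, 0 in Grik and 0 in SST, beside 1327, 919 and 1102 of all genes. In Grik and SST the log2 fold changes of the members ran from -0.42 to 0.43 and from -0.29 to 0.34. The narrowest intervals were those of Hapln4, whose log2 fold change was 0.078 in CamK (95% interval -0.14 to 0.29), 0.048 in Grik (-0.15 to 0.25) and -0.0050 in SST (-0.20 to 0.19). Those of Bcan were wider, at -0.48 to 0.40 in CamK and -0.063 to 0.75 in SST. For Vcan in CamK the interval ran from -0.62 to 1.28, a wide range at 19 to 130 reads per library.

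**Figure D4:**
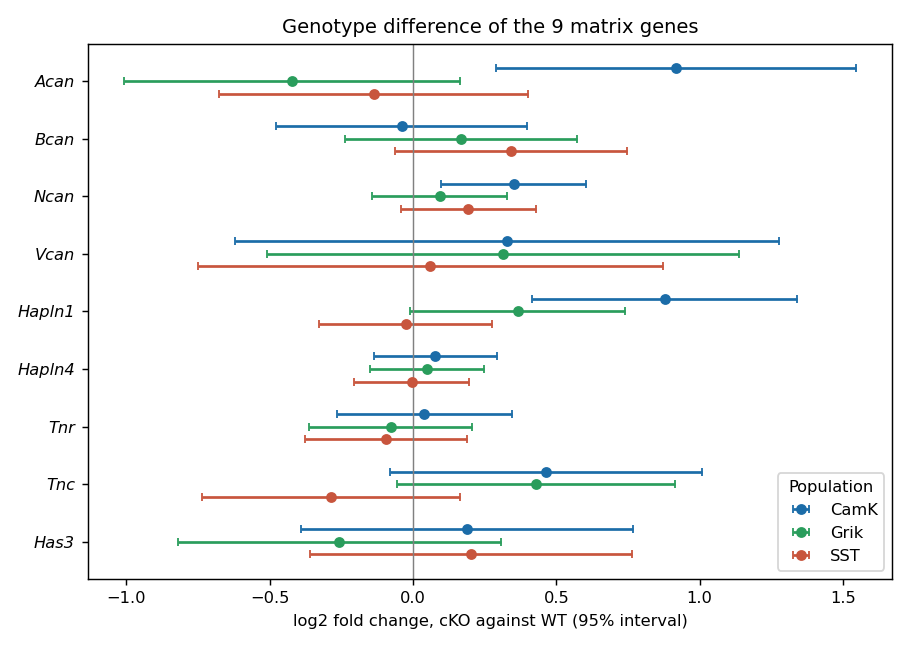
Log2 fold change of each member between libraries labelled cKO and WT in CamK, Grik and SST, with 95% intervals from the edgeR fit. The intervals of Acan, Ncan and Hapln1 in CamK lie above 0 before adjustment, and none passed after adjustment over all genes.

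The 3 members with a low unadjusted p in CamK were Hapln1, Acan and Ncan. Hapln1 was at 0.396, 0.532, 0.226 and 0.350 CPM in WT and at 0.725, 0.833 and 0.522 in the libraries labelled cKO, of which the lowest was below the highest WT library. Its log2 fold change was 0.88 ± 0.22 (SE, adjusted p = 0.400, edgeR), while DESeq2 gave 0.89 with an adjusted p of 0.0435 and called 16 of the 15531 genes to which it gave an adjusted p. Acan was at 0.458, 1.39 and 1.40 CPM in the cKO libraries, with 2 of the 3 above every WT library, and its fitted log2 difference was 0.92 ± 0.30 (SE, adjusted p = 0.600, edgeR). Ncan was at 109, 130 and 105 CPM in CamK cKO against 77.0 to 96.1 in WT, and its log2 difference was 0.35 ± 0.12 (SE, adjusted p = 0.611, edgeR). Some marker sums differed too: 8 astrocyte markers summed to 122 to 152 CPM in CamK cKO against 79.2 to 102 in WT. The 4 endothelial markers summed to 2.44 to 4.22 against 0.915 to 1.82, and 4 parvalbumin interneuron markers to 90.7 to 98.8 against 68.3 to 89.7. Pvalb itself was at 1.32 to 1.92 CPM in CamK cKO and 0.745 to 1.31 in WT. The 3 inhibitory markers summed to 69.2 to 129 CPM in CamK cKO and 41.2 to 135 in WT, ranges that overlapped. Oligodendrocyte (229 to 303 against 156 to 236), precursor (6.02 to 12.4 against 4.55 to 9.33) and microglia sums (1.75 to 4.95 against 1.57 to 4.02) also overlapped. No gene of these marker lists was called between genotypes in CamK. A fit with the glial score, which holds the astrocyte markers, as a covariate gave log2 differences of 0.79 for Hapln1, 0.80 for Acan and 0.24 for Ncan, and the part of the endothelial and parvalbumin markers was not tested.

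Differences of the genotype effect between populations were tested directly, and no member passed, beside 0.00531% of all genes for CamK against Grik, 0 for CamK against SST and 0.0106% for Grik against SST. Before adjustment, 1, 3 and 1 members had p under 0.05 in these tests, beside 1223, 1477 and 727 of all genes, and these members were Acan, Hapln1 and Tnc. For Acan the CamK effect exceeded the Grik effect by 1.34 ± 0.41 on the log2 scale (SE, adjusted p = 0.637, edgeR) and the SST effect by 1.05 ± 0.39 (adjusted p = 0.597, edgeR). For Hapln1 the CamK effect exceeded the SST effect by 0.90 ± 0.26 (adjusted p = 0.597, edgeR). For Tnc the SST effect lay below the CamK and Grik effects by 0.75 and 0.71 on the log2 scale (adjusted p of at least 0.617, edgeR). In SST, Bcan was at 25.1, 17.4, 26.9 and 39.7 CPM in replicates 3, 4, 5 and 7 of the libraries labelled cKO, against 19.0 to 25.5 in WT. The glial score of replicates 5 and 7 was 4.55 and 4.83, against 3.30 and 3.66 in the others. These 2 libraries also had the highest Bcan, and with the glial score as a covariate the Bcan log2 difference between genotypes was 0.18 instead of 0.34 (adjusted p = 0.945, edgeR). Neither value was called, and the glial part in the Bcan level was not tested.

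The other genes of the pathway were taken from 5 lists, of which 79 of 82 genes passed the filter. Their counts in WT stand beside a background of 42.0% of all genes called between CamK and Grik, 60.1% between CamK and SST and 57.3% between Grik and SST. None of them was called between genotypes in any population or in a difference of effects. Of 11 genes for hyaluronan and link proteins, 1 was higher and 2 were lower in CamK than in WT Grik, 4 higher and 5 lower in CamK than in SST, and 3 higher and 2 lower in Grik than in SST. Cd44, a hyaluronan receptor, was higher in both pyramidal populations than in SST (log2 fold changes 1.81 in CamK and 2.14 in Grik), and Cemip, which degrades hyaluronan, was higher in CamK than in Grik (0.95) and in SST (0.55). Ugdh, which makes the UDP-glucuronate used for hyaluronan and chondroitin, was at 13.2 ± 0.633 CPM in WT CamK, 12.5 ± 0.788 in WT Grik and 43.2 ± 0.793 in WT SST. Its log2 fold change was -1.71 in CamK and -1.78 in Grik against SST (adjusted p = 9.41e-17 and 3.18e-17, edgeR).

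Of 20 tested genes of chondroitin sulfate synthesis, 4 were higher and 6 lower in CamK than in WT Grik, and 6 were higher and 6 lower in either pyramidal population than in SST, counts near the shares of all genes. Ust, the uronyl 2-sulfotransferase, was at 83.9 CPM in WT CamK and 91.3 in WT Grik against 18.6 in WT SST. Chst11, a chondroitin 4-sulfotransferase, was highest in WT Grik at 124 ± 5.94 CPM, against 60.7 ± 2.36 in WT CamK and 58.5 ± 7.28 in WT SST. Chst15, which adds a further sulfate to chondroitin 4-sulfate, was lower in Grik than in SST (log2 fold change -1.09). Chsy3, a chondroitin synthase, was higher in CamK than in Grik (2.28) and in SST (1.74).

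Among 18 tested matrix proteases and their inhibitors, 13 were lower and 1 was higher in CamK than in WT Grik, where 21.1 and 20.9% of all genes were, with a median log2 fold change of -0.92 beside 0.0078 over all genes. Against SST, 11 were lower and 2 higher in CamK, and 5 were lower and 5 higher in Grik. The widest difference was that of Timp3, a matrix-bound inhibitor of metalloproteases, at 1.40 ± 0.395 CPM in WT CamK, 3.91 ± 1.08 in WT Grik and 189 ± 13.6 in WT SST (log2 fold changes -7.07 and -5.60, adjusted p = 3.82e-16 and 3.04e-15, edgeR). Adamts9 was at 12.5 ± 1.31 CPM in WT Grik, against 1.62 ± 0.604 in WT CamK and 1.33 ± 0.310 in WT SST. Adamts15, an aggrecanase, was lower in Grik than in SST (-2.30), and Adamts1, another, was higher in Grik than in SST (1.73). Glial markers differed between the same populations, as given for Vcan, and their part in these lists was not tested.

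Of 11 matrix receptors, 2 were higher and 6 lower in CamK than in WT Grik, 6 higher and 5 lower in CamK than in SST, and 6 higher and 4 lower in Grik than in SST. Rtn4r, which encodes a Nogo receptor that also binds chondroitin sulfate, and its paralog Rtn4rl2 were at 73.2 and 31.0 CPM in WT CamK, 73.1 and 30.9 in WT Grik and 7.32 and 3.01 in WT SST. Itga9, an integrin that binds tenascin-C, differed from SST by -2.69 in CamK and by -1.78 in Grik on the log2 scale, being higher in SST. Ptprz1, a receptor phosphatase also made by glia, was at 27.6 ± 14.9 CPM in WT SST, with a spread that exceeded its level in WT CamK, 8.10 ± 3.18.

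Of 19 other proteoglycans and matrix glycoproteins tested, 7 were higher and 8 lower in CamK than in WT Grik, 5 higher and 14 lower in CamK than in SST, and 5 higher and 9 lower in Grik than in SST. Reln, encoding the secreted glycoprotein reelin, was at 276 ± 40.8 CPM in WT SST against 8.72 ± 6.72 in WT CamK and 3.97 ± 0.658 in WT Grik. Dcn, encoding decorin, was at 40.9 ± 8.68 CPM in WT CamK against 3.33 ± 0.869 in WT Grik and 2.75 ± 0.568 in WT SST. Gpc1 and Gpc4 encode cell-surface heparan sulfate proteoglycans. Gpc1 was at 228 ± 37.6 CPM in WT Grik against 41.5 ± 6.19 in WT SST, and Gpc4 was higher in CamK than in Grik (log2 fold change 1.25) and in SST (2.49). Spock1, a testican, was at 409 ± 30.2 CPM in WT Grik against 86.7 ± 13.3 in WT CamK.

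**Figure D5:**
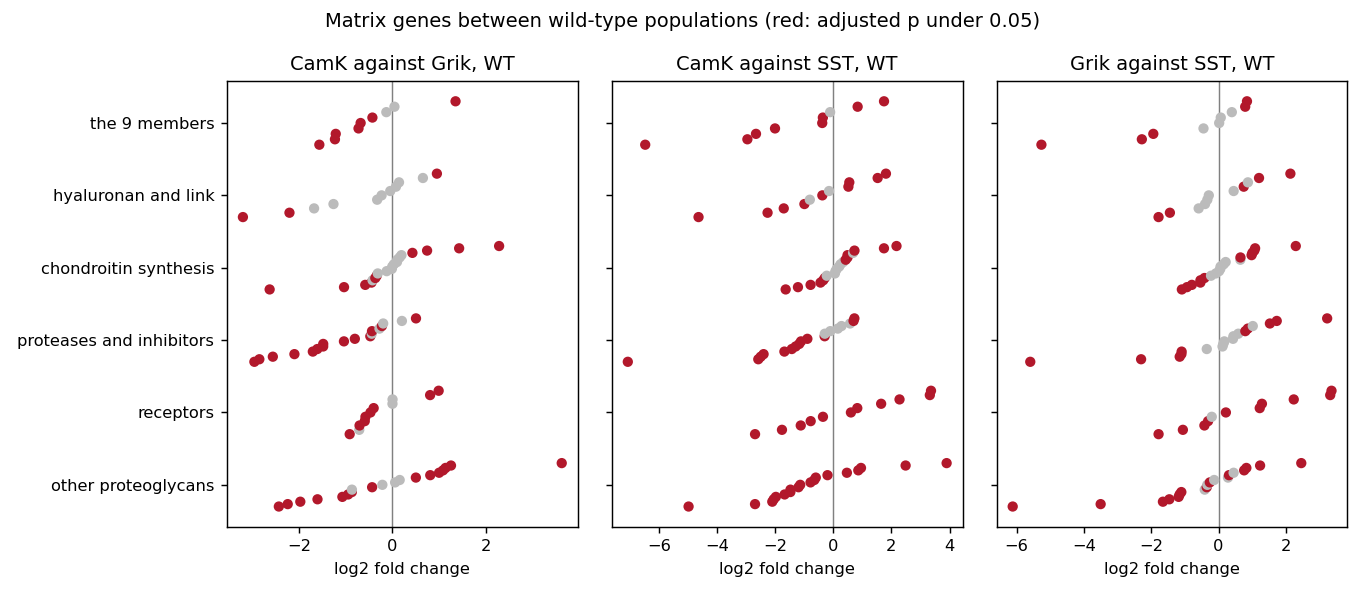
Log2 fold change of every tested gene of the 9 members and the 5 pathway lists in the 3 WT comparisons, 1 point per gene, red where the adjusted p in edgeR was under 0.05. Points of the protease list lie mostly to the left of 0 in the first comparison, where its median is -0.92.

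For the members the genes whose log2 level followed it most closely over the 23 libraries were taken from 13001 genes, with the root mean square of the difference in centred log2 CPM as the measure. For Hapln1 these included Timp3 (0.373), beside a spread of 2.69 of Hapln1 itself. For Vcan they were Gja1 (0.277) and S1pr1 (0.358), for Acan Yes1 (0.365) and Ppp1r3c (0.386), and for Tnc Slc27a2 (0.301) and Asah2 (0.317). For Has3 they were Sez6 (0.292) and Cdc25b (0.305). Of the abundant members, the nearest genes were Gyg for Hapln4 (0.137), Fryl for Tnr (0.0976) and Mfsd10 for Bcan (0.197). The 23 points share the population differences, so the measure is a description.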

How the data were processed

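The values are the authors' deposited read counts, whole numbers for each Ensembl gene, with 1 column for each of the 23 libraries and 0 columns left unused. Trimmomatic, STAR and GRCm38 are named in the submitters' processing notes, without versions. The strand setting and annotation release are not given in the sources used here. Of 45706 gene IDs, 45143 were in GENCODE M21 (GRCm38), which supplied symbols, positions and lengths. Reads in the 4 summary rows that name no gene, 12.4 to 18.4% of all reads, were left out.

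The members, lists and named genes were chosen with earlier results of these data known. The text names all members, up to 2 called genes in each direction per pathway list and WT comparison (the largest absolute log2 fold changes at a mean CPM of at least 1, of which only some are printed), and up to 2 genes most like each member. Some of the latter are not reported here. Tests used edgeR 4.0.16 in R 4.3.3 on all 23 libraries: filterByExpr, TMM, glmQLFit with robust estimation and glmQLFTest, with 17 residual degrees of freedom. P-values were adjusted over the 18823 genes within each comparison by the Benjamini-Hochberg method, with a threshold of 0.05. The biological coefficient of variation was 16.3%. The edgeR step was tested on simulated counts. The 95% intervals use the residual degrees of freedom alone. Other settings tried were scaling by relative log expression, keeping all genes with reads, a minimum of 1 CPM in 3 or more libraries, DESeq2 1.42.0, limma-voom (limma 3.58.1), fitting only the populations compared, the replicate number as a block, a glial marker score as a covariate, another length for the shares, and leaving out each replicate. Leaving out SST cKO replicates 5 and 7 together was added after seeing the data. Promoter sequences are from RefSeq (GRCm38.p6).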

Additional observations from a re-analysis of the deposited data

Results flagged for a closer look

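Single libraries stood apart from the others of their group in 4 of 45 sets of 4 libraries, where chance gives about 2.25. Hapln1 was at 27.7 CPM in SST WT replicate 1, below the other 3 at 34.9 to 36.1. Hapln4 was at 88.2 CPM in CamK WT replicate 2, above the others at 66.0 to 69.0. Tnr was at 135 CPM in Grik WT replicate 6, below the others at 172 to 175, and Tnc was at 1.45 CPM in Grik cKO replicate 2, above the others at 0.771 to 0.875. No member was singled out by a test of the genotype effect between populations.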

How the results depend on the processing

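The differences of Hapln1, Acan, Tnc and Ncan between SST and each pyramidal population kept their direction in WT and in libraries labelled cKO under every alternative run, and kept their call except Acan in CamK against SST among libraries labelled cKO with the glial covariate (-1.09, adjusted p = 0.0613, edgeR). Over all comparisons, counts of members called stayed within 1.5 times of the reported one in 96 fits with another setting and moved further in 5, and stayed in 114 fits without 1 library and moved in 1.

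With the glial score as a covariate, 2 members were called between CamK and Grik WT, 5 between CamK and SST WT and 4 between CamK and SST cKO, beside 16.3, 41.2 and 38.5% of all genes. With limma-voom 8 were called between CamK and Grik cKO, beside 44.4% of all genes. DESeq2 called 1 in CamK cKO against WT, Hapln1, beside 0.103% of all genes. With the glial score as a covariate these values changed sign. In WT, CamK against Grik became 0.91 for Bcan, 0.73 for Vcan and 0.090 for Tnc; CamK against SST became 0.71 for Bcan; and Grik against SST became -0.20 for Bcan and -0.020 for Tnr. In libraries labelled cKO, CamK against Grik became 0.58 for Bcan, 0.62 for Vcan, 0.081 for Tnr and 0.073 for Tnc; CamK against SST became 0.28 for Bcan, 0.065 for Vcan and 0.079 for Tnr; and Grik against SST became -0.00170 for Tnr. Between genotypes, Vcan and Tnr in CamK became -0.013 and -0.032 and Vcan in SST -0.28. With limma-voom, Tnr in CamK became -0.061 and Vcan in SST -0.048 between genotypes. With the stricter CPM filter, Bcan became -0.010 in Grik against SST WT. Without SST cKO replicates 5 and 7, the SST cKO libraries with the most Bcan and the highest glial scores, the SST genotype values became -0.017 for Bcan, -0.018 for Ncan, -0.53 for Vcan and 0.012 for Hapln1, and Grik against SST cKO became 0.20 for Bcan, 0.40 for Vcan and 0.11 for Has3. In CamK against SST cKO the Hapln4 and Vcan calls were then lost, at -0.30 as in the fit of all libraries and at -1.15 instead of -1.74 (adjusted p = 0.0501 and 0.0529, edgeR). The cause of these changes was not tested.

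Same-numbered libraries of the 2 genotypes had correlations of both signs (-0.222 to 0.267), and the labels name nothing that they share beyond the number. With the replicate number as a block the counts of members called stayed 7, 8 and 5 in WT, 4, 7 and 5 in cKO and 0 elsewhere, and Acan (0.098) and Hapln4 (0.064) in SST cKO against WT, and Bcan (0.11) and Vcan (0.072) in Grik against SST cKO, changed sign.

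Without 1 library at a time, the count of members called between CamK and Grik WT was 4 to 7. Values that changed sign ranged as follows: between genotypes in CamK, Bcan -0.24 to 0.096, Vcan -0.15 to 0.77, Tnr -0.088 to 0.16 and Has3 -0.12 to 0.50; in Grik, Hapln4 -0.014 to 0.12; in SST, Acan -0.25 to 0.00178, Vcan -0.21 to 0.24, Hapln1 -0.11 to 0.00429, Hapln4 -0.033 to 0.034 and Tnr -0.19 to 0.00829. In CamK against Grik WT, Ncan ranged from -0.00597 to 0.11. In Grik against SST WT, Bcan ranged from -0.038 to 0.12 and Tnr from -0.032 to 0.19, and in cKO Bcan ranged from -0.32 to 0.082, Vcan from -0.38 to 0.080 and Has3 from -0.21 to 0.099. None of these was called. Members under 1 CPM rest on as few as 19 reads in a library, which limits the precision of Acan, Vcan, Hapln1 and Tnc in CamK.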
